A study of Mus musculus with 63 samples.

Results

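The wild-type (WT) mouse embryonic fibroblasts (mEFs) that served as controls in the *Chaserr* experiments came from 2 pregnancies, and the WT cultures of one pregnancy were compared with those of the other. These cultures are 6 of the 63 samples of the series. WT 1 to 3 had *Chaserr*+/- littermates (the Het pregnancy), and WT 4 to 6 had *Chaserr*-/- littermates (the KO pregnancy). The libraries of each group were taken by their titles alone. The study asks how *Chaserr*, a long noncoding RNA gene just upstream of the chromatin remodeller gene *Chd2*, acts on *Chd2* and on other genes. All 6 cultures carry the unmodified alleles of both genes and received no agent. They were grown from E13.5 embryos in the study's methods (the labels give the day for the WT cultures of the other crosses only), without head and liver, dissociated with trypsin, on gelatin-coated plates in DMEM with fetal bovine serum, and poly(A) RNA was made into libraries with the Lexogen SENSE kit. The mutant lines were made in CB6F1 Ola HSD mice and backcrossed to C57BL/6 Ola HSD. Strain of each embryo, passage and day of harvest are not given in the sources used here, and neither is whether the 3 libraries of a group came from separate embryos, so the p-values below measure only the spread between libraries of one pregnancy. The labels do not give the genotypes of the parents. *Chaserr*-/- littermates need a deletion allele from each parent, while the paper mostly crossed *Chaserr*+/+ females with *Chaserr*+/- males. The genotype of the mother may therefore differ between the pregnancies. With 1 pregnancy on each side, the pregnancy, its mother, its embryos, the culture and the library preparation cannot be told apart.

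An mEF culture is a mixture at the start. Dissociated embryos release fibroblasts together with muscle, cartilage, epithelial, blood and endothelial cells, and the fibroblasts outgrow the others on plastic. Fibroblasts secrete and remodel the extracellular matrix, answer serum growth factors with a wave of immediate early genes, make their own cholesterol when little is supplied, and carry the receptors and transcription factors of the type I interferon response. In bulk RNA, fewer cells of a type and less RNA per cell cannot be told apart.

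Total expected counts ran from 11814184 to 14178022 in the Het pregnancy and from 9836480 to 11061791 in the KO pregnancy. Levels of a gene are given as CPM (counts relative to the scaled total of a library) after TMM scaling of the 6 libraries, and summed levels of a list, or ranges in other mEF groups, as CPM after one scaling of the 18 mEF libraries used. All 20 fibroblast markers listed were measured in every library, and their summed level was 35300 to 41600 CPM in the Het pregnancy and 30400 to 30800 CPM in the KO pregnancy. Of these markers, 8 rose and 8 fell from the Het to the KO pregnancy, with a median log2 fold change of 0.11. The small leucine-rich proteoglycan *Dcn* had 162, 189 and 134 CPM in WT 1 to 3 and 498, 344 and 413 CPM in WT 4 to 6, and the receptor gene *Pdgfra* (a row joined with *Mir7025*) rose by 0.88 on the log2 scale (SE 0.14, adjusted p = 0.000352). The intermediate filament gene *Vim* fell by 0.27 (adjusted p = 0.0307), a call that was lost without WT 1, WT 3 or WT 6 (adjusted p = 0.0862, 0.0897 and 0.129). *Xist* and Y-linked transcripts were divided alike: *Kdm5d* was at 24.2 CPM in WT 2 and 16.5 CPM in WT 6 and at 0 in the other 4 libraries, and *Xist* was at 0.259 and 0.378 CPM in these 2 libraries and between 1870 and 2080 CPM in the others, so each group held 1 library of the first kind. The other 3 Y-linked genes listed (*Ddx3y*, *Eif2s3y* and *Uty*) had counts in the same 2 libraries.

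Most of the transcriptome moved between the WT cultures. Of 13546 genes tested, 7335 (54.1%) were called at an adjusted p under 0.05 (edgeR's quasi-likelihood test), 3726 (27.5%) higher and 3609 (26.6%) lower in the KO pregnancy. Changes of at least 2-fold were mostly rises, with 1438 genes higher (10.6%) and 635 lower (4.69%), and at 4-fold the numbers were 545 and 76. Part of this excess was of genes near 0 in the Het pregnancy. When at least 10 counts were required in every library, 828 genes were higher by at least 2-fold. The matching number of falls is not given here. The values of the 3 and 3 libraries did not overlap for 62.8% of genes. The shares of all genes given here are the background for each count of list members below. The median log2 fold change of all tested genes was 0.001, with quartiles of -0.36 and 0.39. Libraries of a pregnancy resembled each other closely: correlations of log2 CPM were at least 0.99 in the Het and 0.982 in the KO pregnancy, against 0.922 to 0.936 between pregnancies, and the biological coefficient of variation was 0.102.

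**Figure D1:**
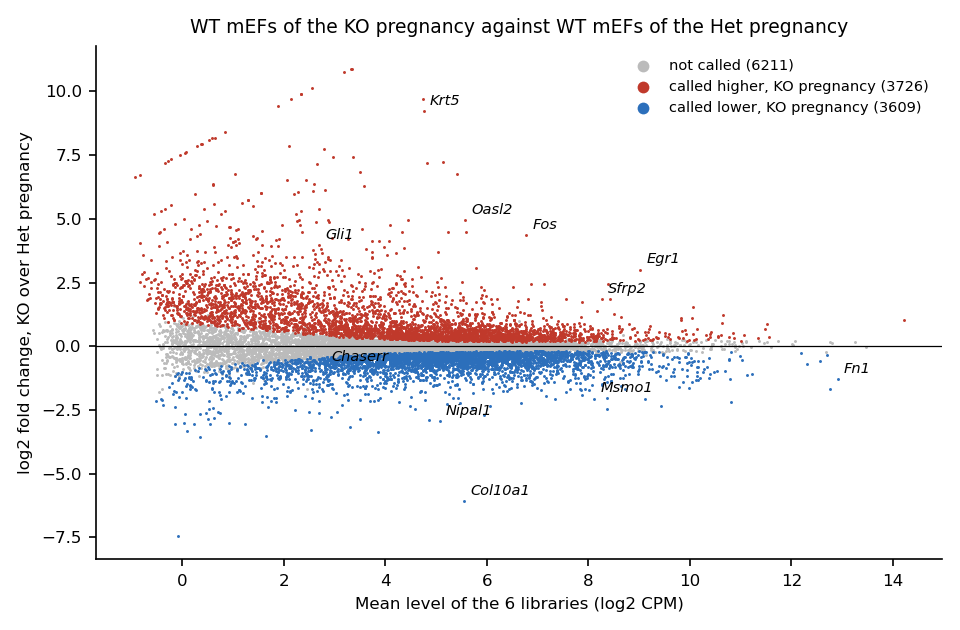
Log2 fold change (KO over Het pregnancy, y axis) of each tested gene against its mean level over the 6 WT libraries (log2 CPM, x axis), with 3726 genes called higher in red, 3609 called lower in blue and the others in grey. Low genes spread upward more than downward, and the fitted fold change of a gene at 0 in one group depends on the prior count.

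Both genes of the locus under study were lower in the WT cultures of the KO pregnancy, *Chaserr* more so than *Chd2*. *Chaserr* was at 9.39, 9.41 and 8.29 CPM in the Het pregnancy and at 6.22, 4.98 and 3.87 CPM in the KO pregnancy, a log2 fold change of -0.84 (SE 0.19, adjusted p = 0.00324). *Chd2* was at 36.8, 37.4 and 39.4 CPM against 28.8, 30.2 and 33.7 CPM, a log2 fold change of -0.29 (SE 0.0898, adjusted p = 0.0175). The groups did not overlap for either gene, as for 62.8% of all genes tested. The *Chd2* call was lost without WT 3 (adjusted p = 0.0758, edgeR) or WT 4 (adjusted p = 0.0502). On the scaling of all mEF libraries, *Chd2* was at 52 to 58.3 CPM in *Chaserr*+/- and 74.9 to 89.2 CPM in *Chaserr*-/- mEFs. *Chaserr* was at 4.61 to 6.89 CPM and at 0 there. In WT mEFs of the *Chd2*+/m and the *Chaserr*+/- *Chd2*+/m cross it was at 9.14 to 10.6 and 33.2 to 40.5 CPM. Among 9 genes of the CHD family, 2 rose, 3 fell and the median log2 fold change was -0.14, and without WT 4 there were 1 higher and 1 lower. Across all genes tested 27.5% rose and 26.6% fell, so these counts show nothing particular to the family. *Chd1* fell by 0.50 (SE 0.09, adjusted p = 0.000753).

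Among genes with a row of their own, a mean FPKM of at least 1 and counts in both groups, the largest fall was that of *Col10a1*, the collagen of hypertrophic cartilage. It was at 89.5, 93 and 96.9 CPM in the Het pregnancy and at 0.964, 1.69 and 1.51 CPM in the KO pregnancy, a log2 fold change of -6.07 (SE 0.143, adjusted p = 2.01e-09). The mutant littermates had 80.9 to 99.8 CPM of *Col10a1* in *Chaserr*+/- and 0.88 to 1.66 CPM in *Chaserr*-/- mEFs, and WT mEFs of the crosses with *Chd2* mutants lay between, at 4.67 to 8.25 and 4.34 to 18.2 CPM. Next came *Itih2*, which encodes a hyaluronan-linked inter-alpha-trypsin inhibitor chain (log2 fold change -3.38), the casein gene *Csn3* (-3.31), *Ccdc68* (-3.28) and *Arhgap36* (-3.16). The magnesium transporter gene *Nipal1* was at 56.3, 60.1 and 62.8 CPM against 7.36, 9.25 and 6.61 CPM (log2 fold change -2.95).

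The largest rises were of genes that were absent or nearly absent in the Het pregnancy. Of 22 rows with at least 10 counts in every library of one group and 0 in every library of the other, 21 were at 0 in the Het pregnancy. They were led by genes of the stratified epithelium and of mast cells: the cornified envelope gene *Sprr1b* (38.4, 15.2 and 7.37 CPM) and the tryptase gene *Tpsb2* (46.3, 8.36 and 5.19 CPM) were both at least 261-fold higher, taking 3 counts over the Het pregnancy as the floor. On the same floor *Cstdc5* was at least 241-fold, the mast cell carboxypeptidase *Cpa3* at least 155-fold, *Krt6b* and *Stfa3* at least 133-fold, the corneal proteoglycan *Kera* at least 112-fold and the surfactant gene *Sftpc* at least 95.6-fold higher. WT 4 had the highest level of each of these 8 genes. The 1 row at 0 in the KO pregnancy is a transcript row of the predicted gene *Gm4070*, with 18, 32 and 19 counts in the Het pregnancy. The floor covers counting error only.

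Interferon response genes were higher in the KO pregnancy almost without exception. Type I interferon signals through transcription factors of the STAT and IRF families, which bind the interferon-stimulated response element (ISRE) of antiviral genes. Of 27 genes tested, 26 rose, 24 of them at least 2-fold, none fell, and the median log2 fold change was 2.89. Some members had low counts in the Het pregnancy. Over the 22 with at least 10 counts in every library, 21 rose, none fell and the median was 2.54. Of all genes tested, 27.5% were higher and 10.6% higher by at least 2-fold. The summed level of the list was 169 to 199 CPM in the Het and 777 to 1070 CPM in the KO pregnancy. The ubiquitin-like modifier *Isg15* was at 1.83, 1.73 and 1.54 CPM against 38, 26.9 and 50.8 CPM (log2 fold change 4.49, SE 0.26, adjusted p = 4.81e-07). The transcription factor gene *Irf7* was at 2.35, 4.4 and 3.01 CPM against 76.7, 57.3 and 84.2 CPM (log2 fold change 4.50, SE 0.20). The groups did not overlap for either gene, as for 62.8% of all genes tested, and WT 5 was the lowest of the KO pregnancy in both. The tethering factor *Bst2*, which holds budding virus at the cell surface, rose by 3.06 (12, 12.8 and 10.8 CPM against 94.7, 89.7 and 112 CPM). *Oasl2*, *Usp18* and *Oas1a* rose by 4.94, 4.15 and 4.12. The exception was *Ifit2*, at 13, 13.8 and 11.9 CPM against 13.7, 11.4 and 11.9 CPM (log2 fold change -0.06, SE 0.125, adjusted p = 0.706), while its neighbours *Ifit1* and *Ifit3* rose by 3.51 and 1.88. *Psmb8* rose by 3.24 and *Tap1* by 1.00, genes of the immunoproteasome and of peptide transport. *Mx1*, with at most 1.04 CPM in any library, was not tested.

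Promoters of this list are shown because its members rose together. The ISRE was searched as GAAANNGAAA on both strands in the 250 bases before the start of each RefSeq gene of GRCm38.p6. It was found in 9 of the 24 promoters of listed genes (37.5%; 21 of 28 listed genes had a promoter in the table) and in 978 of 32851 promoters in all (2.98%). The 9 genes are *Gbp3*, *Gbp2*, *Isg15*, *Oas1a*, *Bst2*, *Stat2*, *Rsad2*, *Ifit3* and *Ifit1*. Capitals mark the matches, merged where they overlap, and TTTC runs are matches on the opposite strand.
Isg15: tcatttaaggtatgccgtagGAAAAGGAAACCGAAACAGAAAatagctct
Oas1a: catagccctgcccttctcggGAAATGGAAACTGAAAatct
Bst2: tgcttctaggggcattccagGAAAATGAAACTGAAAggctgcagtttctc
Ifit1: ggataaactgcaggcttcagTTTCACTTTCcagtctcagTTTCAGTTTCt
They lie at chr4:156200867-156200916 (minus strand), chr5:120907526-120907565 (minus strand), chr8:71537573-71537622 (minus strand) and chr19:34640765-34640814 (plus strand). The 4 genes shown rose by 4.49, 4.12, 3.06 and 3.51 on the log2 scale. A match is a description of these letters and not a site of binding, and a promoter without one says only that the letters are not in this window.

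Chemokines and targets of NF-kB moved in both directions, beside 27.5% higher and 26.6% lower of all genes. Of 19 genes tested, 11 rose and 3 fell, with a median log2 fold change of 0.47, but the mean summed level was 1050 CPM in the Het and 981 CPM in the KO pregnancy. Its abundant member *Ptgs2*, a prostaglandin synthase gene, fell (282, 264 and 341 CPM against 80.7, 111 and 61 CPM, log2 fold change -1.81). Without WT 4 the list had 9 higher and a median of 0.29. The monocyte attractant *Ccl2* was at 57.8, 54.5 and 58.2 CPM against 150, 162 and 119 CPM (log2 fold change 1.34, SE 0.11, adjusted p = 3.6e-06). *Cxcl10*, which is also an interferon target, rose by 2.09, and the adhesion molecule gene *Icam1* by 1.01.

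Several immediate early genes rose steeply. They encode transcription factors and phosphatases that serum and growth factors switch on within minutes, in part through serum response factor (SRF) and its CArG box. Of 25 genes tested, 14 rose, 4 fell and 7 did not pass the test, and the summed level was 1250 to 1390 CPM against 2320 to 2660 CPM. *Fos* was at 9.61, 9.84 and 11.1 CPM in the Het and at 236, 207 and 189 CPM in the KO pregnancy (log2 fold change 4.37, SE 0.11, adjusted p = 2.04e-09). *Egr1* was at 115, 112 and 117 CPM against 935, 916 and 912 CPM (log2 fold change 3.01, SE 0.08, adjusted p = 2.04e-09). The 3 libraries of a pregnancy were nearly level for *Egr1*, so the difference was many times their spread. *Fosb* rose by 4.47, *Ier2* by 1.83, *Junb* by 1.27 and *Jun* by 0.79. The rise did not extend to the whole list: *Myc* was at 107, 90.2 and 98.7 CPM against 108, 117 and 78.4 CPM (log2 fold change 0.03, SE 0.13), *Dusp6* had a log2 fold change of -0.04 (SE 0.12), and the growth factor gene *Hbegf* fell by 1.69 (136, 117 and 144 CPM against 37.7, 54 and 31 CPM). The median log2 fold change of the list, 0.49, was 0.25 after a correction for GC content and length, and without WT 4 the list had 14 higher and 2 lower.

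CArG boxes were found in 6 of 20 promoters of listed immediate early genes (30%; 16 of 25 genes had a promoter) and in 482 of 32851 promoters in all (1.47%). The 6 promoters belong to 3 genes, *Egr2*, *Srf* and *Dusp5*. Some of them are alternative starts of *Egr2* that share the same box. By gene, the box was thus found for 3 of 16 listed genes and for 1.62% of all genes. *Egr2* and *Srf* are shown with the boxes in capitals, from chr10:67537777-67537826 (plus strand) and chr17:46556215-46556264 (minus strand).
Egr2: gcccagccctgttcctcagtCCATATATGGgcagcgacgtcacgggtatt
Srf: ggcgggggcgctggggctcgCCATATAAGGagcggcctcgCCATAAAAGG
*Egr2* rose by 1.71 (3.89, 4.4 and 4.55 CPM against 14.9, 14.8 and 12.3 CPM) and *Srf* by 0.66, while *Dusp5* fell by 0.38 (SE 0.139, adjusted p = 0.0397), a call that was lost without WT 1, WT 3, WT 4 or WT 6 (adjusted p = 0.062, 0.172, 0.0839 and 0.138).

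**Figure D2:**
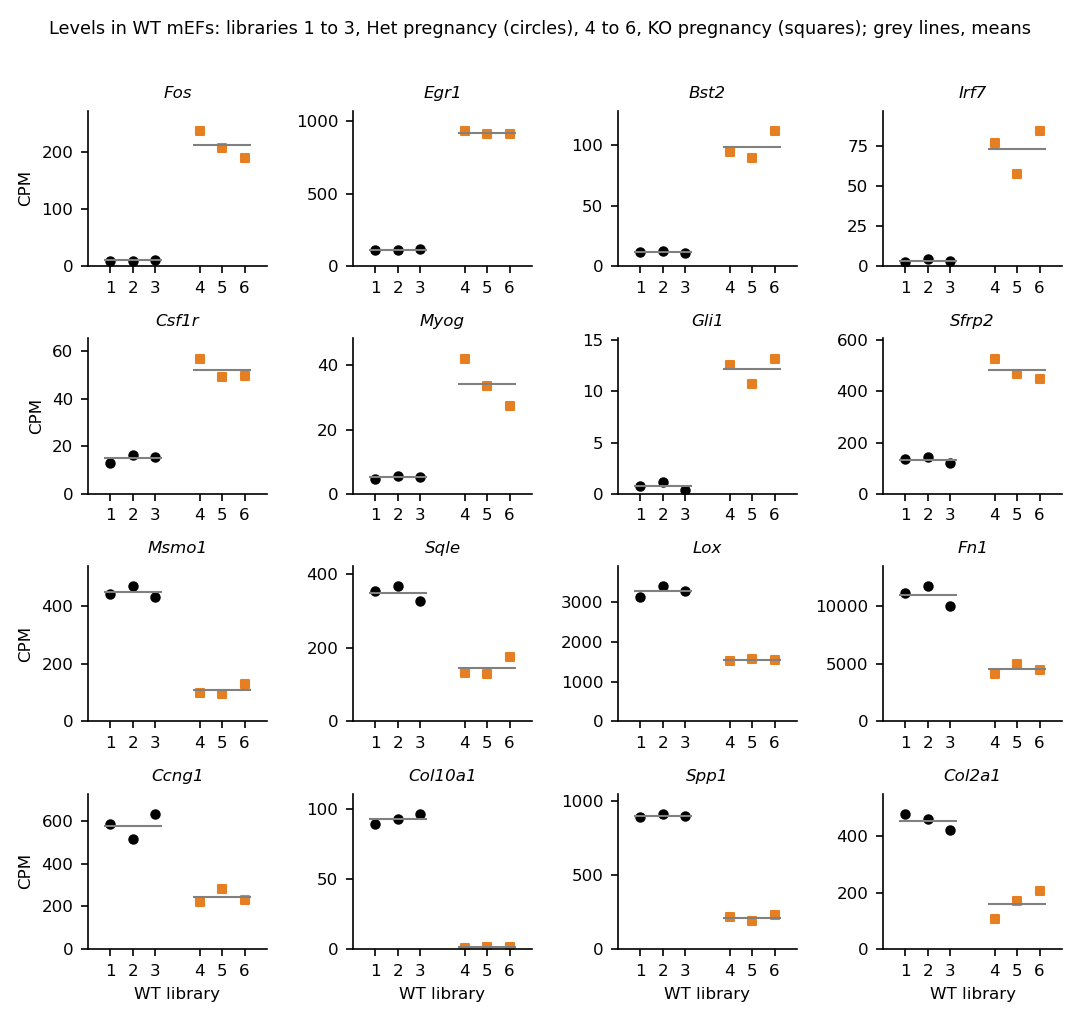
Level in CPM (y axis, from 0) of 16 genes in WT libraries 1 to 3 of the Het pregnancy (circles) and 4 to 6 of the KO pregnancy (squares), with grey lines at the group means. The 16 genes were picked for display. The groups do not overlap for any of them, as for 62.8% of all genes tested, and Egr1 is nearly level within each pregnancy.

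Cholesterol synthesis fell as a whole. The enzymes from acetyl-CoA to cholesterol and their shared regulators are switched on by SREBP-2 when cells are short of sterol. Of 24 genes tested, 23 fell, 12 of them at least 2-fold, and none rose, with a median log2 fold change of -0.98, against 26.6% of all genes lower and 4.69% lower by at least 2-fold. The summed level was 4130 to 4500 CPM in the Het and 1740 to 2350 CPM in the KO pregnancy. The sterol methyl oxidase gene *Msmo1* was at 442, 468 and 430 CPM against 97.2, 95.6 and 129 CPM (log2 fold change -2.06, SE 0.11, adjusted p = 3.45e-07). Squalene epoxidase, *Sqle*, was at 352, 366 and 327 CPM against 130, 128 and 174 CPM (log2 fold change -1.28, SE 0.11). WT 6 was the highest of its pregnancy in both, and still below every library of the Het pregnancy. The lanosterol demethylase *Cyp51* fell by 1.73 and *Insig1* by 1.40. The regulator *Srebf2* fell by 0.41 (SE 0.09, adjusted p = 0.00254). Mevalonate kinase, *Mvk*, was the only member that did not pass (33.9, 31.6 and 29.1 CPM against 28.7, 38.1 and 40.4 CPM).

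The sterol regulatory element, searched as TCACNCCAC, was found in 1 of 19 promoters of the list (5.3%; 16 of 24 genes) and in 346 of 32851 in all (1.05%). The promoter that holds it is that of the synthase gene *Hmgcs1*, which is shown with the element in capitals, from chr13:119690194-119690242 (plus strand).
Hmgcs1: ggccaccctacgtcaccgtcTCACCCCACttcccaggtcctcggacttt
*Hmgcs1* itself fell by 0.64 (110, 121 and 106 CPM against 64.5, 61 and 91.8 CPM).

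Fatty acid synthesis fell with it. Of 14 genes, 10 fell and none rose, with a median log2 fold change of -0.58. The stearoyl-CoA desaturase gene *Scd1* was at 657, 687 and 585 CPM against 155, 188 and 260 CPM (log2 fold change -1.68, SE 0.16, adjusted p = 9.7e-06), and its abundant relative *Scd2*, in a row joined with *Mir5114*, fell by 1.27. The desaturases *Fads1* and *Fads2* fell by 0.71 and 0.83. Fatty acid synthase, *Fasn*, fell by 0.46 (SE 0.10). Glycolysis moved less: 6 of 16 genes fell, none rose, and the median was -0.15. The glucose transporter gene *Slc2a1* fell by 0.62 and *Hk2* by 0.81, whereas *Gapdh* (log2 fold change 0.19, SE 0.09), *Aldoa* (0.09, SE 0.09) and *Tpi1* (0.05, SE 0.08) did not pass the test.

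Markers of white blood cells were higher in the KO pregnancy. Of 17 macrophage markers, 16 rose, 15 at least 2-fold, with a median log2 fold change of 1.89 and a summed level of 202 to 261 CPM against 739 to 917 CPM. The adaptor gene *Tyrobp* was at 9.32, 8.89 and 9.75 CPM against 63.3, 56.9 and 58.6 CPM (log2 fold change 2.67, SE 0.09, adjusted p = 3.14e-08). The receptor gene *Csf1r* was at 13.1, 16.1 and 15.4 CPM against 56.8, 49.1 and 49.5 CPM (log2 fold change 1.81), and the complement gene *C1qb* at 19.3, 23.2 and 22.8 CPM against 117, 84.8 and 102 CPM (log2 fold change 2.22). Macrophage markers were thus present in both pregnancies, and the groups did not overlap for these 3 genes, as for 62.8% of all genes tested. The lipopolysaccharide coreceptor *Cd14* did not pass (log2 fold change 0.31, SE 0.298; -0.22 without WT 6). Both the interferon and the macrophage sums were higher in the KO pregnancy, and the part of macrophages in the interferon result was not tested.

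Neutrophil, erythroid and mast cell markers were close to absent in the Het pregnancy. Members of these lists passed the filter on low counts mainly through the KO pregnancy, so a count of tested members that rose says nothing, and levels are given instead. Of 12 neutrophil and myeloid progenitor markers, 9 passed the filter, and the summed level of the list was 1.29 to 1.61 CPM against 41.7 to 82.7 CPM. The calprotectin gene *S100a9* was at 0.0734, 0.0863 and 0.244 CPM against 12.2, 6.87 and 16.6 CPM, *Ngp* at 0.147, 0.173 and 0.244 CPM against 8.94, 11.6 and 21.3 CPM, and the elastase gene *Elane* was at 0 in the Het pregnancy and at least 25.8-fold higher in the KO pregnancy. WT 6 was the highest of its pregnancy for these 3 genes. *Cebpe* and *Camp*, also markers, were at 0 in all of the Het pregnancy and did not pass the filter.

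Of 14 erythroid rows 5 passed the filter, and the summed level of the list was 2.33 to 3.57 CPM against 129 to 254 CPM. The beta-globin row that joins *Hbb-bs* and *Hbb-b1* was at 0.22, 0.345 and 0.813 CPM against 56.3, 93.5 and 60.6 CPM, and the alpha-globin row that joins *Hba-a1* and *Hba-a2* at 0.66, 0.604 and 1.06 CPM against 58.8, 136 and 58.5 CPM. Globin copies share sequence, so the split between them is uncertain. WT 5 was the highest for both. *Alas2* and *Slc4a1* were at 0 in the Het pregnancy and at 0.526 to 1.59 CPM in the KO pregnancy. Mast cell proteases showed 1 library apart: *Cma1* was at 0.514, 0 and 0 CPM against 52.9, 8.26 and 6.42 CPM, with WT 4 far above the rest. Of 8 mast cell genes 5 passed the filter, 1 of them with at least 10 counts in every library, and the summed level of the list was 4.71 to 5.94 CPM against 26.6 to 162 CPM. The high-affinity IgE receptor gene *Fcer1a* was at 0 in all 6 libraries, and *Mcpt8*, a basophil protease, fell by 3.03 (3.96, 2.24 and 3.9 CPM against 0.35, 0.597 and 0.283 CPM).

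Epithelial markers were higher in the KO pregnancy, except one, with a summed level of 126 to 157 CPM against 243 to 478 CPM. Several were near 0 in the Het pregnancy and passed the filter through the KO pregnancy. Of the 8 with at least 10 counts in every library, 7 rose and 1 fell, with a median log2 fold change of 2.26. The basal keratin gene *Krt5* was at 0.0734, 0.173 and 0 CPM against 86.5, 37.8 and 37.6 CPM, a ratio of 689 with a 95% counting interval of 235 to 3340, and its partner *Krt14* at 1.69, 1.12 and 1.22 CPM against 70.6, 35.4 and 21.5 CPM (log2 fold change 4.96). *Krt6a*, of activated keratinocytes, was at 0, 0 and 0.163 CPM against 91.2, 44.2 and 25.4 CPM (ratio 1030, interval 284 to 8480). WT 4 was highest in each, and WT 5 and WT 6 were far above the Het pregnancy as well. E-cadherin, *Cdh1*, rose by 3.66 and *Epcam* by 3.78. *Krt19* fell by 1.45 (87.3, 80.7 and 94.8 CPM against 34.8, 38.8 and 22.5 CPM). *Krt19* is also expressed in mesothelium, and a link of its fall to mesothelial cells was not tested. Of 6 mesothelial genes tested, 4 fell and none rose, where 26.6% of all genes fell. Their median was -1.27 and the summed level of the list 144 to 169 CPM against 41.1 to 76.7 CPM. Mesothelin, *Msln*, was at 47.9, 60.2 and 46.7 CPM against 6.31, 10.1 and 4.53 CPM (log2 fold change -2.89, SE 0.21, adjusted p = 1.72e-06), and the uroplakin gene *Upk3b* fell by 1.75. *Wt1*, another mesothelial marker, had a log2 fold change of 0.02 (SE 0.23).

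Skeletal muscle genes rose without exception: all 13 were at least 2-fold higher, with a median log2 fold change of 1.82 and a summed level of 294 to 326 CPM against 960 to 1660 CPM. The myogenic regulator *Myog* was at 4.62, 5.44 and 5.37 CPM against 42.1, 33.6 and 27.2 CPM (log2 fold change 2.74, SE 0.17, adjusted p = 7.68e-07), and *Myod1* rose by 2.71. The sarcomeric actin genes *Actc1* (90.6, 121 and 101 CPM against 828, 564 and 313 CPM) and *Acta1* rose by 2.45 and 1.84, and the fast light chain gene *Mylpf* by 1.71. Smooth muscle and myofibroblast genes went the other way, with 3 of 15 higher and 10 lower and a median of -0.39. Tropomyosin 1, *Tpm1*, fell by 0.81, transgelin, *Tagln*, by 0.50 and caldesmon, *Cald1*, by 1.16, while the light chain kinase gene *Mylk* rose by 1.10. *Acta2*, smooth muscle actin, fell by 0.34 (adjusted p = 0.0102; 0.0515 without WT 1).

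In cartilage and bone lists the most abundant member fell while most others rose. Of 11 chondrocyte genes, 8 rose and 2 fell, with a median log2 fold change of 0.91 (0.63 over 7 genes that had 10 or more counts in each library), but the summed level was 499 to 560 CPM against 233 to 354 CPM. *Col2a1*, the main cartilage collagen, was at 479, 459 and 423 CPM against 108, 169 and 204 CPM (log2 fold change -1.50, SE 0.18, adjusted p = 4.92e-05). The cartilage regulator *Sox9* was at 36.1, 37.4 and 32.8 CPM against 59.3, 69.5 and 70.3 CPM (log2 fold change 0.91, SE 0.09), and *Col9a1* rose by 2.12. The matrilin gene *Matn3* fell by 1.09 (adjusted p = 0.0113, edgeR; 0.0582 without WT 3), and *Col10a1*, which is not in the list, fell as given above. Of 11 osteoblast genes, 9 rose and 1 fell, with a median of 2.12 (0.96 over 8 genes that had 10 or more counts in each library) and a summed level of 988 to 1010 CPM against 420 to 467 CPM. Osteopontin, *Spp1*, was at 892, 916 and 898 CPM against 217, 192 and 231 CPM (log2 fold change -2.08, SE 0.09). The phosphatase gene *Alpl* was at 6.46, 6.47 and 5.93 CPM against 32.4, 44.5 and 41.8 CPM (log2 fold change 2.65), bone sialoprotein, *Ibsp*, rose by 2.12 and the master regulator *Runx2* by 0.60. The counts over all tested members include genes with fewer than 10 counts in some library. Without those, 4 of 7 chondrocyte genes rose and 2 fell, and 6 of 8 osteoblast genes rose and 1 fell. For both lists more genes thus rose than fell, while the summed level was lower in the KO pregnancy.

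Endothelial markers did not move as a group, with 3 higher, 3 lower and 3 that did not pass of 9 tested. *Pecam1* (0.954, 0.777 and 0.569 CPM against 22.2, 14.8 and 7.18 CPM) and *Cdh5* rose by 4.24 and 3.88, both junction proteins of endothelium, while the VEGF receptors *Kdr* and *Flt1* fell by 1.31 and 0.44. *Kdr* was at 31.5, 28.1 and 33.2 CPM against 12.9, 15.3 and 9.35 CPM. The median log2 fold change was 0.16, -0.16 without WT 2 and -0.03 after the GC and length correction.

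Markers of neural and other rare lineages rose more often than they fell. Of 13 neuron and neural progenitor genes, 10 rose and 1 fell (median 0.87), with summed levels that overlapped, 142 to 148 CPM against 134 to 156 CPM. The abundant progenitor filament gene *Nes* fell by 1.16 (84.3, 83 and 90.8 CPM against 39.8, 40.7 and 34.8 CPM). Doublecortin, *Dcx*, rose by 1.59 and *Tubb3* by 0.72. Of 9 Schwann and neural crest genes, 6 rose (median 0.79; 4 rose and the median was 0.48 without WT 4), with *Sox10* at 6.02, 6.3 and 4.23 CPM against 25.1, 20.6 and 19.2 CPM. Of 8 melanocyte genes, 4 passed the filter on low counts, in part through the KO pregnancy. Of these 4, 3 rose (median 1.77, and 1.20 without WT 4). Over the 3 with at least 10 counts in every library, 2 rose and the median was 1.31. *Dct* was at 0.294, 0.173 and 0.244 CPM against 7.36, 1.69 and 1.89 CPM. Hepatocyte genes varied within a pregnancy, and 6 of 12 passed the filter on low counts, 2 of them with at least 10 counts in every library: *Alb* was at 0.147, 0.69 and 1.95 CPM against 13.1, 14 and 40 CPM, and summed levels were 15.2 to 53.6 CPM against 80 to 171 CPM. Of 12 adipocyte genes, 6 passed the filter, of which 4 rose and 1 fell (median 1.14, and 0.72 without WT 4). Over the 5 with at least 10 counts in every library, 4 rose, none fell and the median was 1.44. Adiponectin, *Adipoq*, had counts in WT 4 (4.38 CPM) and in no other library. Markers of several lineages that moved together are given here as levels, and their part in the changes of other gene groups was not tested.

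**Figure D3:**
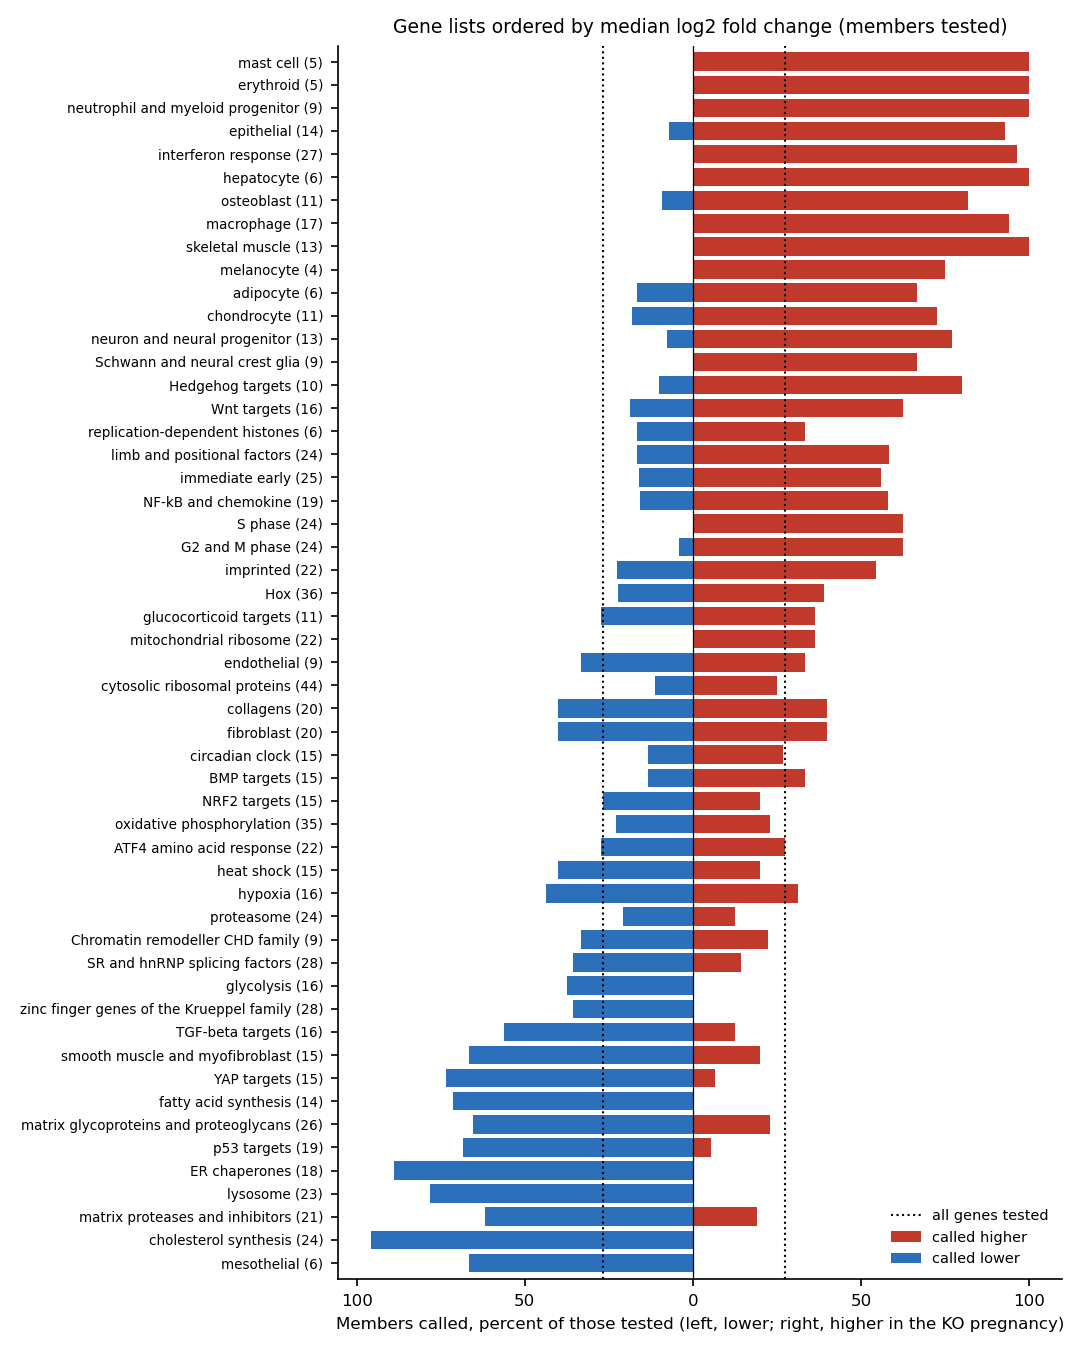
Share of tested members called higher (right) and lower (left) in the KO pregnancy, in percent, for 53 gene lists ordered by median log2 fold change. Lists of blood, epithelial, muscle and interferon genes lie at one end, and mesothelial, cholesterol, lysosome, matrix and chaperone lists at the other. Members of the mast cell, erythroid and neutrophil lists were tested mainly because of their level in the KO pregnancy, so their bars are fixed by the filter. Bars of other lists, among them epithelial, interferon, melanocyte and hepatocyte, also include members that fell short of 10 counts in some library. Leaving those members out, 7 of 8 epithelial, 21 of 22 interferon, 2 of 3 melanocyte and 2 of 2 hepatocyte genes rose, and 1 epithelial gene fell.

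Genes of the secreted matrix fell more often than they rose, apart from the collagens, beside 27.5% higher and 26.6% lower of all genes. Of 26 matrix glycoproteins and proteoglycans, 17 fell and 6 rose, with a median of -0.59 and a summed level of 50600 to 54100 CPM against 26900 to 28000 CPM. Fibronectin, *Fn1*, was at 11100, 11700 and 9970 CPM against 4080, 4950 and 4480 CPM (log2 fold change -1.28, SE 0.10, adjusted p = 2.98e-06), and *Sparc*, which binds collagen and calcium, at 7400, 7520 and 6930 CPM against 4920, 4730 and 5000 CPM (log2 fold change -0.58, SE 0.08). Thrombospondin 1, *Thbs1*, fell by 1.68, biglycan, *Bgn*, by 0.70 and tenascin C, *Tnc*, by 1.14. By contrast *Dcn* rose by 1.37 and *Lum* by 2.43, both proteoglycans of mature connective tissue. Of 20 collagens, 8 rose and 8 fell (median 0.11, and -0.09 after the GC and length correction). *Col1a1* was at 6500, 7560 and 5450 CPM against 7090, 7520 and 7470 CPM (log2 fold change 0.18, SE 0.11), *Col3a1* rose by 0.59, the basement membrane collagen *Col4a1* fell by 0.96, *Col5a2* by 1.16 and *Col8a1* by 1.70. Of 21 matrix proteases and inhibitors, 13 fell and 4 rose (median -0.61). Inhibitors *Timp2* and *Timp3* fell by 1.24 and 1.32, and *Mmp14* by 0.68, but gelatinase B, *Mmp9*, a protease also of white blood cells, was at 4.92, 4.83 and 4.47 CPM against 36.7, 37.8 and 35.2 CPM (log2 fold change 2.94).

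Targets of TGF-beta and YAP fell more often than they rose, beside 27.5% higher and 26.6% lower of all genes. Of 16 TGF-beta targets, 9 fell and 2 rose (median -0.39), with a summed level of 8370 to 8890 CPM against 3900 to 4560 CPM. The crosslinking enzyme gene *Lox* was at 3130, 3390 and 3270 CPM against 1510, 1560 and 1550 CPM (log2 fold change -1.09). Among 15 YAP targets, 11 fell and 1 rose (median -0.50). *Ccn2* was at 1390, 1160 and 1430 CPM against 351, 578 and 401 CPM (log2 fold change -1.58), *Ankrd1* fell by 1.68 and *Axl* by 0.57. Its family member *Ccn1* did not pass (log2 fold change -0.21, SE 0.10, adjusted p = 0.0934).

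Targets of p53 were mostly lower and cell cycle genes mostly higher, beside 27.5% higher and 26.6% lower of all genes. Of 19 p53 targets, 13 fell and 1 rose (median -0.59), with a summed level of 2460 to 2810 CPM against 1390 to 1760 CPM. *Ccng1* was at 583, 516 and 633 CPM against 221, 282 and 230 CPM (log2 fold change -1.24, SE 0.11), the ubiquitin ligase gene *Mdm2* fell by 1.23 and the cell cycle inhibitor *Cdkn1a* by 0.75 (429, 381 and 479 CPM against 212, 290 and 265 CPM). Of 24 S phase genes, 15 rose and none fell (median 0.38), and of 24 G2 and M phase genes 15 rose and 1 fell (median 0.30). No member of either list reached 2-fold. The helicase subunit *Mcm4* was at 152, 152 and 150 CPM against 234, 219 and 225 CPM (log2 fold change 0.58, SE 0.07), and *Ube2c* rose by 0.68. *Pcna* (log2 fold change -0.06, SE 0.10) and *Cdk1* (0.14, SE 0.09) did not pass. Replication-dependent histones are poorly seen in poly(A) RNA: 6 of 15 listed rows were tested, 2 rose and 1 fell. Their median of 0.63 was 0.15 without WT 5 and -0.10 over the 4 genes that had 10 or more counts in each library, with *H2ax*, which is also polyadenylated, up by 1.22.

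Genes of the secretory and lysosomal compartments fell, where 26.6% of all genes were lower. Of 18 ER chaperones and folding factors, 16 fell and none rose (median -0.60), with a summed level of 9610 to 10500 CPM against 6260 to 6370 CPM. *Hspa5* (BiP) was at 1610, 1780 and 1590 CPM against 1020, 854 and 967 CPM (log2 fold change -0.81, SE 0.09), *Hsp90b1* fell by 1.00 and *Calr* by 0.40. The regulator *Xbp1* did not pass (log2 fold change -0.03, SE 0.07). Of 23 lysosomal genes, 18 fell and none rose (median -0.61), with a summed level of 7750 to 8910 CPM against 5320 to 5550 CPM. *Lamp1* was at 1610, 1680 and 1560 CPM against 869, 836 and 887 CPM (log2 fold change -0.90, SE 0.08), and *Lamp2* and *Ctsd* fell by 1.08 and 0.60.

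The other stress lists held genes of both directions, beside 27.5% higher and 26.6% lower of all genes. Among 15 heat shock genes 3 rose and 6 fell (median -0.09), with log2 fold changes of -0.59 for *Hsp90aa1* and -0.64 for *Hspd1*. Of 15 NRF2 targets, 3 rose and 4 fell (median -0.05), with *Txnrd1* at -0.65 and *Gstm1* at 0.66. Of 22 ATF4 targets of the amino acid response, 6 rose and 6 fell (median -0.07): *Atf5* rose by 0.65, and *Ddit3* fell by 1.49 (82, 73.6 and 78.3 CPM against 29.4, 22.4 and 31.4 CPM). Of 16 hypoxia genes, 5 rose and 7 fell (median -0.09, and -0.27 after the GC and length correction), with a summed level of 1700 to 1840 CPM against 1030 to 1120 CPM, the collagen hydroxylases *P4ha1* and *P4ha2* falling by 0.69 and 0.68 and the carbonic anhydrase gene *Car9* rising by 2.46 (0.587, 0.431 and 0.325 CPM against 2.37, 3.18 and 2.08 CPM). Metallothioneins led the glucocorticoid list, of which 4 of 11 rose and 3 fell (median 0.20), although the summed level was lower, at 576 to 625 CPM against 419 to 442 CPM: *Mt1* was at 297, 287 and 250 CPM against 125, 83.4 and 116 CPM (log2 fold change -1.36). Of 15 clock genes, 4 rose and 2 fell (median 0.03), with *Arntl* at 37.3, 38.4 and 41.1 CPM against 21.8, 21.7 and 22.1 CPM (log2 fold change -0.83) and *Npas2* and *Per2* at 0.79 and 0.76.

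Hedgehog and Wnt genes rose more often than they fell, beside 27.5% higher and 26.6% lower of all genes. Hedgehog signalling is read out by *Gli1* and *Ptch1*: of 10 genes, 8 rose and 1 fell (median 0.73). *Gli1* was at 0.807, 1.12 and 0.406 CPM against 12.6, 10.7 and 13.2 CPM (log2 fold change 3.96, SE 0.27, adjusted p = 1.17e-06), whereas *Ptch1* did not pass (37.1, 35.3 and 36.7 CPM against 38.4, 45 and 40.9 CPM). The inhibitor *Hhip* fell by 0.60. The pathway components *Smo*, *Cdon*, *Boc* and *Gas1* rose by 0.61 to 0.86. Of 16 Wnt genes, 10 rose and 3 fell (median 0.73). The target *Axin2* rose by 0.70 and *Nkd1* by 2.50, and the secreted modulator *Sfrp2* was at 137, 142 and 122 CPM against 528, 469 and 448 CPM (log2 fold change 1.85, SE 0.09). The Wnt target *Ccn4* fell by 0.77 and *Dkk3* by 1.13. Of 15 BMP genes, 5 rose and 2 fell (median 0.02), with *Id2* up by 0.70 and the antagonist *Grem1* and the ligand *Bmp4* down, with log2 fold changes of -1.40 and -0.67.

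Genes of positional identity moved in both directions, beside 27.5% higher and 26.6% lower of all genes. Of 36 Hox genes, 14 rose, 8 fell and the median was 0.23. Divided by paralogue group, a division made after the values were seen, genes of groups 9 to 13 had 10 higher and 1 lower of 15 (median 0.66), and those of groups 1 to 8 had 4 higher and 7 lower of 21 (median -0.12). *Hoxa5* was at 57.9, 60.1 and 51.6 CPM against 26.9, 34.3 and 35.2 CPM (log2 fold change -0.82, SE 0.11), and *Hoxa13*, of the most distal limb, at 3.23, 3.8 and 4.15 CPM against 7.8, 11.7 and 9.16 CPM (log2 fold change 1.36, SE 0.20). Of 24 limb and other positional factors, 14 rose and 4 fell (median 0.59). Both the hindlimb factor *Tbx4* and the forelimb factor *Tbx5* rose, by 1.36 and 0.82, with *Meis1* at 0.59. WT 4 was the lowest of the KO pregnancy for *Tbx4*, *Tbx5*, *Hoxa10* and *Hoxa13*.

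Imprinted genes, many of which govern fetal growth, rose more often than they fell: 12 of 22 rose and 5 fell (median 0.24). Across all genes tested 27.5% rose and 26.6% fell. *Dlk1* was at 1040, 1060 and 796 CPM against 2460, 2390 and 1930 CPM (log2 fold change 1.23, SE 0.13), *Mest* at 638, 575 and 518 CPM against 1270, 1160 and 1260 CPM (log2 fold change 1.09), and *Cdkn1c* rose by 1.74. H19, in a row joined with *Mir675*, rose by 0.53. Its neighbour *Igf2* did not pass (7240, 7140 and 6750 CPM against 4810, 7130 and 6270 CPM), and *Igf2r* fell by 0.90.

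Genes of basic machinery moved little, beside 27.5% higher and 26.6% lower of all genes. Of 44 cytosolic ribosomal protein genes, 11 rose and 5 fell (median 0.11), of 35 oxidative phosphorylation genes 8 rose and 8 fell (median -0.06), of 22 mitochondrial ribosome genes 8 rose and none fell (median 0.19), and of 24 proteasome genes 3 rose and 5 fell (median -0.11). No member of these 4 lists reached 2-fold. Per length, the called genes of highest FPKM included *Rpl23a*, *Rpl28*, *Rps10* and *Tmsb10* among those that rose, by 0.35 to 0.43 on the log2 scale, and *Rpl38*, *S100a11*, *Vim*, *Acta2* and *Sparc* among those that fell, by 0.27 to 0.58. The calls of *Rpl28*, *Rps10* and *Tmsb10* were lost after the GC and length correction (adjusted p = 0.0884, 0.128 and 0.235), and that of *Rpl23a* without WT 2, WT 3 or WT 6 (adjusted p = 0.0746, 0.0548 and 0.0833). *S100a11*, a calcium-binding protein gene, was at 1310, 1190 and 1370 CPM against 963, 767 and 869 CPM. Of 28 SR and hnRNP splicing factors, 4 rose and 10 fell (median -0.14; 2 and 11 without WT 4), with *Srsf2* up by 0.51, *Clk1* down to a log2 fold change of -1.33 and *Luc7l3* at -1.19. Of 28 zinc finger genes of the Krueppel family, none rose and 10 fell (median -0.36), with *Zfp87* at 14.2, 13 and 13.1 CPM against 8.32, 7.96 and 8.03 CPM. Both lists hold transcripts of low GC content, with medians of 41.4% and 41.9%, and after the correction the splicing list had 11 higher and 7 lower (median 0.09) and the zinc finger list 2 higher and 7 lower (median -0.19).

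Fold changes followed the GC content of the transcript. GC content was known for 12988 of the 13546 genes tested (95.9%). The slope of each library's log2 CPM, relative to the mean of the 6 libraries, on GC content was -0.174, -0.148 and -0.209 per 10 percentage points in WT 1 to 3 and 0.089, 0.262 and 0.181 in WT 4 to 6. The means of -0.177 (SD 0.03, n = 3) and 0.177 (SD 0.087, n = 3) differed by 0.354, with every slope of one pregnancy below every slope of the other (two-sided exact permutation test, p = 0.1, the smallest that 3 against 3 allows). From the lowest to the highest of 10 equal bins of genes by GC content, the median log2 fold change rose from -0.35 (GC of 33.3% to 41.8%) to 0.32 (57.8% to 72.9%), the share of genes called higher from 10.5% to 46% and the share called lower fell from 50.8% to 10.1%. Median GC content was 53% in genes that rose, 46.4% in genes that fell and 50% in the rest. Across genes, which are not independent replicates, Spearman's rho between log2 fold change and GC content was 0.332, and a linear trend with GC content took up 5.51% of the variance of the fold changes. With transcript length rho was -0.0316, and the slopes on log2 length differed by -0.043 (exact permutation p = 0.1).

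Removing a smooth trend with GC content and length from each library took the medians of the bins to between 0 and 0.05 and rho to 0.0296, and left 6970 genes called, of which 5874 (80.1% of those called before) had been called in the same direction. After it the interferon list had 26 higher and none lower of 27 (median 2.91), cholesterol synthesis 22 lower and none higher (median -1.04), macrophage markers 16 higher (median 1.84), lysosomal genes 19 lower (median -0.69), ER chaperones 16 lower (median -0.55) and S phase genes 19 higher (median 0.45). What produced the trend was not tested. Mean fragment length, as the gap between transcript length and effective length, was 128 bases (SD 2.8, n = 3) in the Het and 121 bases (SD 13.1, n = 3) in the KO pregnancy (difference -6.89 bases, exact permutation p = 0.5). On the scaling of all 18 mEF libraries the slopes were 0.062 to 0.114 in WT 1 to 3 and 0.351 to 0.532 in WT 4 to 6. The littermates differed otherwise, with 0.002 to 0.287 in *Chaserr*+/- and -0.449 to 0.171 in *Chaserr*-/- mEFs, so the higher slope of WT 4 to 6 was not found in their mutant littermates. Genes called higher made up 36.4% of 1001 genes on chromosome 7 and 22.5% of 481 on chromosome 13, and the other autosomes and the X chromosome lay between.

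**Figure D4:**
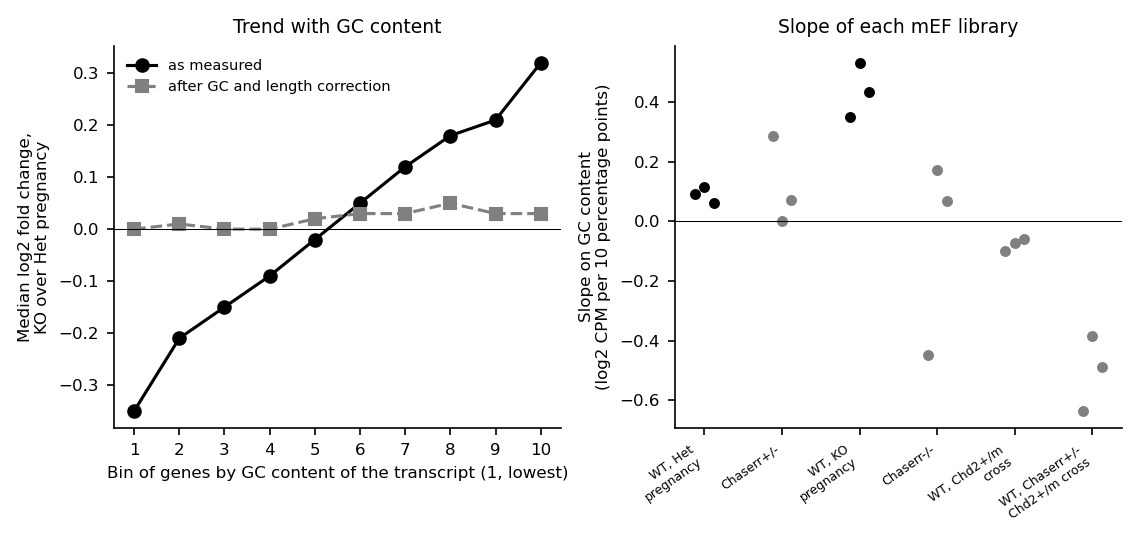
Left, median log2 fold change (KO over Het pregnancy) of genes in 10 equal bins by GC content of the transcript, as measured (circles) and after the GC and length correction (squares). Right, slope on GC content (log2 CPM per 10 percentage points) of each of the 18 mEF libraries by group, where WT libraries of the KO pregnancy have the highest slopes and the correction on the left flattens the rise from -0.35 to 0.32.

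The pregnancies can also be compared through the mutant littermates: *Chaserr*+/- mEFs came from the Het and *Chaserr*-/- mEFs from the KO pregnancy. That comparison shares no library with the WT comparison, but genotype and pregnancy cannot be told apart in it. It called 3627 of 13552 genes (26.8%), 1764 higher and 1863 lower in *Chaserr*-/- mEFs, with a biological coefficient of variation of 0.17. Of 7181 genes called between the WT groups and tested in both, 5492 (76.5%) had the same sign there, against 66.7% of all 13309 genes tested in both. Of the 1924 that differed by at least 2-fold between the WT groups, 1852 (96.3%) had the same sign. Some of these genes were near 0 in the Het pregnancy in both comparisons, for example *Sprr1b* and *Krt5*. Such genes passed the filter on low counts through *Chaserr*-/- mEFs, so they could hardly be lower there, and their shared sign says little. The share without them, and a background for changes of this size, are not given here. Genes called in both numbered 2631. Spearman's rho over genes was 0.583, a description across genes that share depth and GC content within each library.

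In *Chaserr*-/- against *Chaserr*+/- mEFs, 24 of 26 interferon genes were higher (median 2.61), as were 15 of 17 macrophage markers (median 1.45), and 21 of 24 cholesterol genes (median -0.98), 19 of 23 lysosomal genes (median -0.84), 11 of 15 YAP targets (median -0.83) and 17 of 26 matrix glycoproteins (median -0.92) were lower. The epithelial sum was 126 to 185 CPM in *Chaserr*+/- and 465 to 519 CPM in *Chaserr*-/- mEFs. *Isg15* was at 0.8 to 1.98 CPM in *Chaserr*+/- and 24.3 to 39 CPM in *Chaserr*-/- mEFs, and *Msmo1* at 370 to 599 and 147 to 202 CPM. Of 25 immediate early genes, 4 were higher and 9 lower (median 0.04). *Fos* stood at 16.5 to 26.4 CPM in *Chaserr*+/- and 96.2 to 160 CPM in *Chaserr*-/- mEFs, against 9.6 to 11.1 and 189 to 232 CPM in the WT cultures of the same pregnancies, and *Egr1* at 205 to 281 and 353 to 613 CPM against 112 to 117 and 906 to 920 CPM. ER chaperones were lower for 5 of 18 (median -0.33), skeletal muscle genes higher for 5 of 13 (median 0.53), chondrocyte genes had a median of -0.12, and zinc finger genes had 1 higher and none lower (median 0.13). None of these differences between the WT and the mutant comparison was tested.

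WT mEFs of the other crosses show which pregnancy lay nearer to them for each list. The WT cultures of the *Chd2*+/m cross and of the *Chaserr*+/- *Chd2*+/m cross had macrophage sums of 374 to 513 and 531 to 564 CPM, between the Het and the KO pregnancy. Their interferon sums were 205 to 261 CPM, just above the Het pregnancy, and 421 to 802 CPM. For cholesterol synthesis the first had 2060 to 2100 CPM, inside the range of the KO pregnancy, and the second 3080 to 3810 CPM, between both. For epithelial markers their sums of 147 to 201 and 92.6 to 167 CPM were nearer to the Het pregnancy, and for matrix glycoproteins their 29100 to 29800 and 22100 to 24200 CPM to the KO pregnancy. The WT cultures of the other crosses thus lay near the Het pregnancy for some lists and near the KO pregnancy for others. Libraries of the *Chaserr*+/- *Chd2*+/m cross also had shorter fragments, 83.3 to 83.9 bases against means of 128 and 121 in the Het and KO pregnancies. Their GC slopes on the scaling of all 18 libraries were -0.636 to -0.383. The part of these library differences in the sums was not tested.

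**Figure D5:**
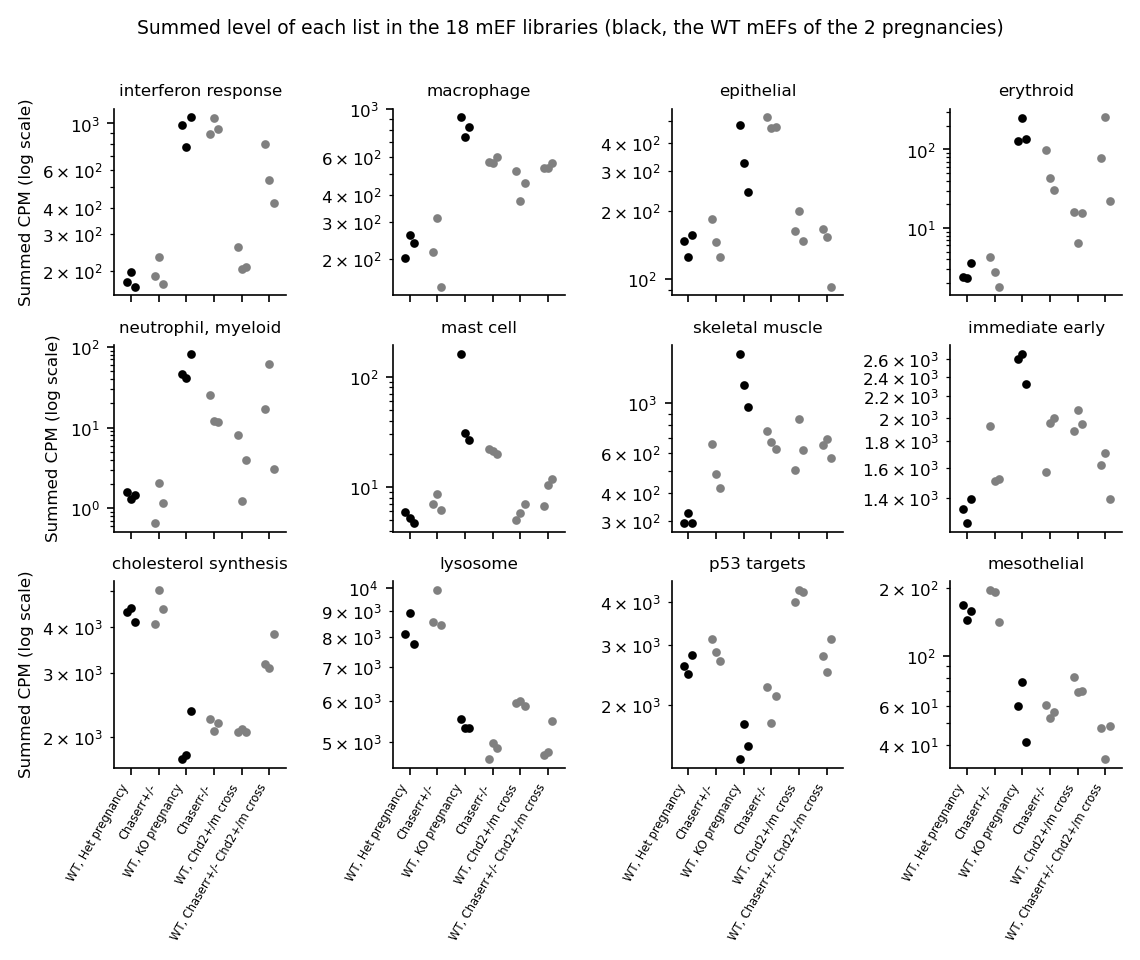
Summed level (CPM, log axis) of 12 gene lists in each of 18 mEF libraries, by group, with the WT libraries of the Het and KO pregnancies in black and the mutant littermates and the WT libraries of the other crosses in grey. Littermates lie near the WT cultures of their pregnancy for interferon, epithelial and lysosome lists, and for immediate early genes the Chaserr-/- libraries lie below the WT libraries of the KO pregnancy.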

How the data were processed

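RNA-seq of 18 mEF libraries was used, 6 of them the WT cultures compared and 12 their mutant littermates and the WT cultures of 2 other crosses. The remaining samples are not analysed here. The authors mapped reads to RefSeq genes with RSEM, with the last exon of *Chaserr* edited in the annotation, and deposited expected counts, FPKM and transcript lengths per gene. Tool versions are not given in the sources used here. The submitters' processing notes name both mm9 and mm10, and transcript GC content and chromosomes were taken from a match to an mm9 annotation.

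Expected counts were rounded. Genes that passed filterByExpr were tested with edgeR 4.0.16 in R 4.3.3, after the code was tested on simulated data. The settings were the quasi-likelihood test, TMM scaling, Benjamini-Hochberg adjustment over all 13546 genes and a threshold of 0.05. Fold changes kept the default prior count of edgeR, and a prior count of 2 entered only the log2 CPM values. Only the 6 WT libraries entered the fit. FPKM values deposited by the authors served only to rank genes by level. The GC and length correction subtracted a lowess trend (span 0.3) of each library's log2 CPM. Counting intervals and floors of 3 counts cover counting error only. No library differed from another by less than sampling noise. Alternatives used DESeq2 1.42.0, limma 3.58.1 (voom), RLE factors, other filters and fits, the correction, and each library left out.

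Genes were named by rule: *Chd2* and *Chaserr*, up to 10 genes at each extreme of fold change (mean FPKM of at least 1, groups not overlapping, a row of 1 symbol), the 5 most abundant called in each direction, and up to 4 called members of highest FPKM of each of 54 lists. Not all of these are described, some are not reported here, and other list members were named after their values were seen. The comparison, its lists and its tests were chosen with earlier results of these data known. Promoters are RefSeq sequences of GRCm38.p6. No column of the tables went unmapped.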

Additional observations from a re-analysis of the deposited data

How the results depend on the processing

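Over the alternatives other than leaving out a library, 6052 to 7741 genes were called, 3194 to 3960 higher and 2858 to 3781 lower, and the difference in GC slope was 0.338 to 0.356. With each library left out in turn, 6127 to 7203 genes were called, 3228 to 3675 higher, 2899 to 3542 lower, 1478 to 1562 higher and 620 to 716 lower by at least 2-fold. The difference in GC slope was then 0.312 to 0.399, and the share with the same direction in the mutant littermates 75.1% to 80.7%. Counts of changes of at least 2-fold under these settings were added after seeing the data. Genes higher by at least 2-fold numbered 828 when at least 10 counts were required in every library, a filter that removes genes near 0 in the Het pregnancy. The share of called genes with the same direction in the littermates was 88.5% with the GC and length correction in both comparisons. The share of all genes under that correction is not given here, and the 66.7% above is without it. The cause of the change was not tested. Of the genes called by edgeR, DESeq2 called 6603 (90%) and voom 7263 (99%).

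Among the named genes, the calls of *Gas1*, *Tmsb10*, *Vim* and *Dusp5* were lost in one fit of the 12 mEF libraries of both pregnancies (adjusted p = 0.0839, 0.107, 0.0565 and 0.114, edgeR), and that of *Dusp5* with DESeq2 (adjusted p = 0.0542). Log2 fold changes that changed sign belonged to genes that did not pass the test. After the GC and length correction these were -0.05 for *Aldoa*, -0.09 for *Col1a1*, 0.03 for *Dusp6*, 0.17 for *Ifit2*, -0.09 for *Myc*, 0.18 for *Pcna* and -0.03 for *Wt1*. With each library left out in turn, values ranged from -0.15 to 0.07 for *Dusp6*, from -0.08 to 0.18 for *Myc*, from -0.23 to 0.21 for *Wt1* and from -0.22 to 0.55 for *Cd14*. List medians near 0 that changed sign included those of the NRF2 list (0.01 without WT 3, 0.04 without WT 6), the BMP list (-0.03 without WT 2) and the clock list (-0.03 after the correction, -0.05 without WT 5). Those of the endothelial, collagen, splicing factor and replication-dependent histone lists also changed sign, as given above. So did that of the X and Y list, which rests on 1 tested gene. Library preparation, pregnancy and culture cannot be told apart, and with 3 libraries a side the slopes could not reach an exact p under 0.1. No paired analysis was possible because the WT libraries are numbered 1 to 3 and 4 to 6 and share no replicate number.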
